A study of Arabidopsis thaliana with 4 samples.

Results

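The genes followed here are 8 auxin-responsive genes of Arabidopsis thaliana, 6 of the IAA family (IAA1, IAA2, IAA3, IAA6, IAA19 and IAA29) and 2 of the GH3 family (GH3.3 and GH3.5). They were taken as 8 named probe sets of the 22746 on the array, because the AS2 protein (for Asymmetric Leaves 2, a nuclear protein of plants) acts on leaf polarity through auxin response factors. The probe sets are 245397_at (IAA1), 257766_at (IAA2), 263664_at (IAA3), 260152_at (IAA6), 258399_at (IAA19), 253423_at (IAA29), 245076_at (GH3.3) and 253908_at (GH3.5). The annotation table used here lists 3 of them, 253423_at as IAA29 (AT4G32280), 245076_at as GH3.3 (AT2G23170) and 253908_at as WES1 (AT4G27260), another name of GH3.5. The other 5 carry the gene names of the member list, and those pairings could not be checked. This matters most for 263664_at, because IAA3 and IAA17, both Aux/IAA genes, lie close together in the genome with 1 annotated gene between them in the reference table. It is therefore called by its probe set below.

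Auxin is a plant hormone that acts on transcription through degradation of repressors. Aux/IAA proteins bind auxin response factors (ARFs) and hold their target genes off. Auxin joins them to the TIR1/AFB receptors, which leads to their destruction and frees the ARFs. Many Aux/IAA genes are themselves early targets of ARFs, so that auxin induces its own repressors. GH3 enzymes of the group that includes GH3.3 and GH3.5 couple the auxin indole-3-acetic acid to amino acids, which lowers the free hormone, and their genes are also induced by auxin. In the shoot apex auxin marks the sites of new leaf primordia. ARF3 and ARF4 promote the lower (abaxial) side of the leaf, and AS2, together with AS1, represses ARF3 as part of forming the upper (adaxial) side.

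RNA came from shoot apices of plants grown for 14 days on MS agar in long days, with 16 h of light and 8 h of dark. The groups were Col-0, which is the wild type, and plants of the same Col-0 background with as2-1, a mutant allele of AS2, each with DMSO or with 10H-CPT, a relative of the drug camptothecin and an inhibitor of the DNA-relaxing enzyme topoisomerase I (TOP1). DMSO was the solvent of the inhibitor, whose dose is not in the labels. There was 1 array for each of the 4 groups, so a ratio of 2 arrays has no replicate check and carries no p-value.

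Signals are given on the linear scale of MAS5, the Affymetrix summary of the probes in a set. The median signal of an array lay between 86.0 and 88.3. The 40th percentile of all signals, 46.6, served as a floor, and probe sets above it on 1 or more of the arrays compared are called measured. Between 13590 and 13711 probe sets lay above the floor on each array. AS2 and the TOP1 genes, and every gene fixed for ARFs, auxin receptors, auxin transport and SAUR genes, were not matched to a probe set, so the labels could not be checked on the mutated gene or on the drug's targets. Of 9 genes fixed as markers of the shoot apex, only CLV3 was matched, and its signals of 15, 7.9, 5.5 and 1.1 all lay below the floor. None of the green leaf and flower markers was matched. Of 4 root markers, 2 were matched. EXPA7, a root hair expansin, lay below the floor on every array, and BGLU23, a beta-glucosidase abundant in roots, had signals of 3487.7 and 4393.5 in Col-0 without and with 10H-CPT and of 3826.4 and 5603.4 in the mutant. These few markers leave the labelled tissue largely unchecked.

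Of the 8 probe sets, 6 lay above the floor on all 4 arrays, and 2 lay below it on every array. IAA6 had signals of 36.2 and 16.9 in Col-0 without and with 10H-CPT and of 19.2 and 17.5 in the mutant. IAA29, whose gene is known for its induction in shade and warmth, had signals of 17 and 23.1 in Col-0 and of 14.3 and 10 in the mutant. No ratio is given for either at this floor, since signals this dim have no reliable order. All statements on measured members below cover the other 6.

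The measured members had their highest signals on DMSO arrays (6 of 6) and their lowest on 10H-CPT arrays (6 of 6, or 5 of 6 after quantile normalization). The exception was 263664_at, whose Col-0 signals of 89.3 and 88.6 changed order in that setting. In RNA of a whole tissue, fewer cells of a type and less RNA per cell cannot be told apart. Of 12717 probe sets that no array had below the floor, 47.9% had their highest signal on a DMSO array and 56.3% their lowest on a 10H-CPT array. For 4 of the 6 the lowest signal was that of as2-1 on 10H-CPT, as for 30.3% of all. The highest signal was that of Col-0 on DMSO for 3 members and that of as2-1 on DMSO for the other 3, as for 23.6% and 24.3% of all. The DMSO signals of IAA19 and of GH3.5 were near ties between the genotypes, and after quantile normalization the order of IAA19 turned and the split was 4 and 2. BGLU23 had its highest signal on the as2-1 10H-CPT array, 1.46-fold above as2-1 on DMSO, and its part in these values was not tested.

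**Figure D1:**
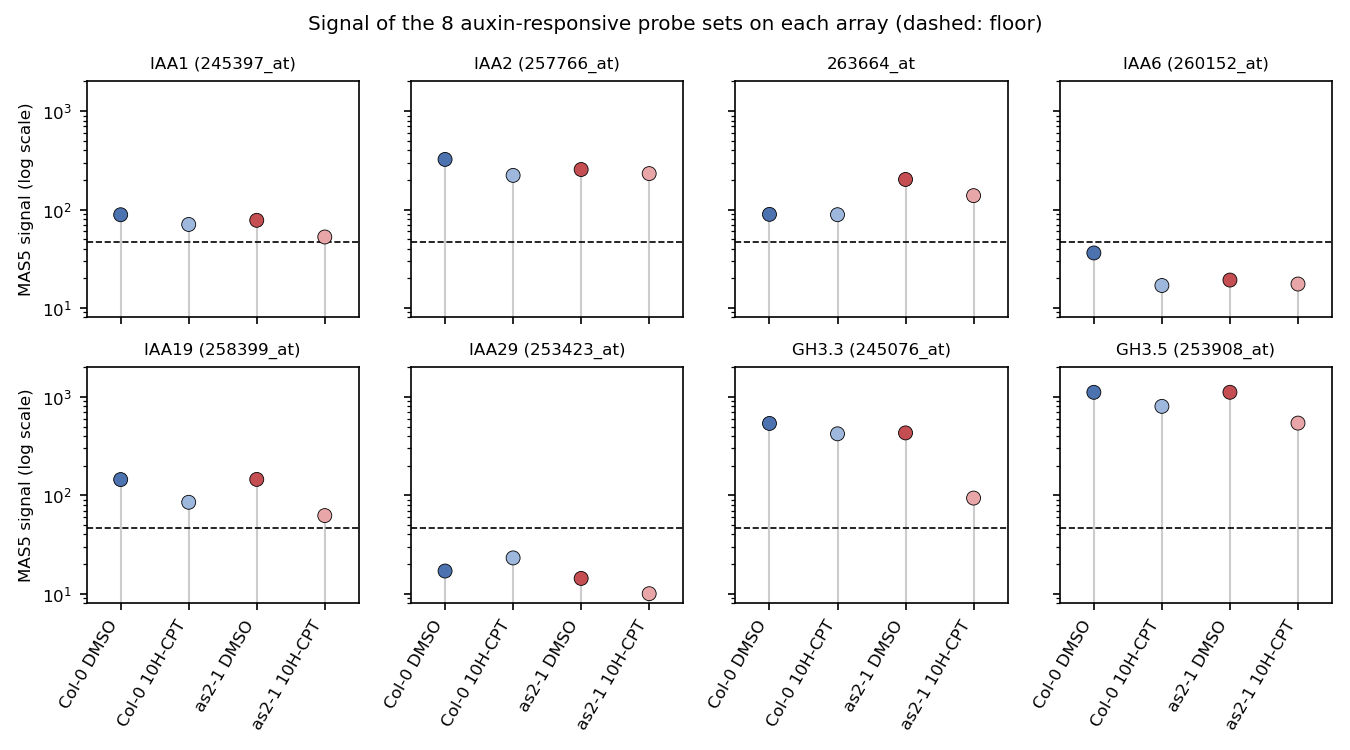
MAS5 signal (vertical axis, log scale) of each of the 8 probe sets on the 4 arrays, 1 point per array, with the floor of 46.6 as a dashed line. IAA6 and IAA29 stayed below the floor throughout, and GH3.3 dropped from 430.5 to 93.7 between the as2-1 arrays on DMSO and on 10H-CPT.

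Among the Aux/IAA repressors, IAA19 differed most with the inhibitor. IAA19 acts in the growth curvature of hypocotyls, where its dominant mutation msg2 blocks the response to light and gravity. Its signals were 144.5 in Col-0 on DMSO, 84.9 in Col-0 on 10H-CPT, 145.0 in as2-1 on DMSO, and 62.2 in treated as2-1. Both DMSO signals lay above both inhibitor signals, and the DMSO signals of the genotypes were nearly equal. On 10H-CPT the signal was 1.70-fold lower than on DMSO in Col-0 and 2.33-fold lower in the mutant.

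IAA1 and IAA2 are early auxin-induced genes of the same family. IAA1 had signals of 88.5 and 70.5 in Col-0 without and with 10H-CPT and of 77.7 and 52.6 in the mutant. It was 1.25-fold lower on the inhibitor in Col-0 and 1.48-fold lower in the mutant, and both genotypes' inhibitor signals lay below both DMSO signals. IAA2 had signals of 323.0 and 222.3 in Col-0 and of 255.1 and 231.8 in the mutant. Here too the inhibitor signals lay below the DMSO signals, with a log2 ratio of -0.54 in Col-0 but only -0.14 in as2-1. IAA2 was the 1 measured member with a smaller decrease on the inhibitor in the mutant than in the wild type.

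Probe set 263664_at, listed as the Aux/IAA gene IAA3, was the 1 member of 6 higher in the mutant in both treatments. So were 29.7% of the 13629 probe sets measured in both. Its signals were 89.3 in Col-0 on DMSO, 88.6 in Col-0 on 10H-CPT, 202.1 in as2-1 on DMSO, and 138.4 in treated as2-1. Both as2-1 signals lay above both Col-0 signals. The mutant excess was 2.27-fold on DMSO and 1.56-fold on 10H-CPT. On DMSO this ratio was the 93rd highest of 14069 measured probe sets, and on 10H-CPT 6.78% of 14147 had a higher one. In Col-0 the inhibitor ratio was close to even, with a log2 value of -0.01, and in as2-1 the signal was 1.46-fold lower on 10H-CPT.

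In as2-1 the genes of both GH3 enzymes, like IAA19, were more than 2-fold lower on the inhibitor. GH3.3 had signals of 537.3 in Col-0 on DMSO, 421.4 in Col-0 on 10H-CPT, 430.5 in as2-1 on DMSO, and 93.7 in treated as2-1. The first 3 signals lay close together, and the last stood apart below them. On 10H-CPT GH3.3 was 1.27-fold lower than on DMSO in Col-0 and 4.60-fold lower in the mutant. In as2-1 it was 1.25-fold lower than in Col-0 without the inhibitor and 4.50-fold lower with it. Both of the larger ratios use the same as2-1 array on 10H-CPT, so they are not separate observations.

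GH3.5, which also acts on salicylic acid, had signals of 1112.6 and 801.3 in Col-0 without and with 10H-CPT and of 1113.9 and 541.5 in the mutant. The DMSO signals of the genotypes were nearly equal, and both inhibitor signals lay below them. The signal was 1.39-fold lower on the inhibitor in Col-0 and 2.06-fold lower in the mutant. GH3.5 thus had the order of arrays seen for IAA19, while for GH3.3 the as2-1 DMSO signal lay beside the Col-0 inhibitor signal.

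The first comparison set as2-1 against Col-0 on DMSO, that is, the mutation without the inhibitor. Among 6 measured members, 1 was at least 2-fold higher in as2-1, 263664_at, and 0 were at least 2-fold lower. Of all 14069 measured, 1.04% were at least 2-fold higher and 1.09% at least 2-fold lower. The members' log2 ratios ran from -0.34 to 1.18 with a median of -0.09, beside a median of 0.01 over all measured probe sets. Of the 6, 3 were lower and 3 higher, 2 of the latter by less than 0.01 on the log2 scale.

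With the inhibitor, as2-1 against Col-0 gave 0 members at least 2-fold higher and 1 at least 2-fold lower, GH3.3. Here 2.69% of the 14147 probe sets measured were at least 2-fold higher and 1.57% at least 2-fold lower. The log2 ratio of GH3.3 was -2.17, the 13th lowest of all. The other members had log2 ratios of -0.42 for IAA1, 0.06 for IAA2, 0.64 for 263664_at, -0.45 for IAA19 and -0.57 for GH3.5. The median of the 6 was -0.44, beside -0.01 over all measured probe sets. Only IAA1 and GH3.3 were lower in as2-1 in both treatments, as were 29.7% of the 13629 probe sets measured in both.

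The inhibitor comparison asked how 10H-CPT altered these transcripts in each genotype. In Col-0, 0 of 6 members were past 2-fold in either direction, where 1.55% of 14091 probe sets were at least 2-fold higher and 2.1% at least 2-fold lower. The members' median log2 ratio was -0.41, with IAA19 lowest at -0.77, and the median over all was -0.01. In as2-1, 3 of 6 members (IAA19, GH3.3 and GH3.5) were at least 2-fold lower on the inhibitor and 0 at least 2-fold higher. In that pair 2.3% of 14244 probe sets were at least 2-fold lower and 2.96% at least 2-fold higher. The median log2 ratio of the members was -0.80, beside -0.02 over all. GH3.3 had the 26th lowest ratio in this pair, IAA19 the 204th and GH3.5 the 309th.

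These 2 inhibitor comparisons share no array. All 6 members were lower on 10H-CPT in both of them, as were 33.6% of the 13748 probe sets measured in both. After quantile normalization it was 5 of 6, since the log2 ratio of 263664_at in Col-0 went from -0.01 to 0.01. For 5 of the 6 (4 after quantile normalization) the decrease was also the greater one in as2-1, which held for 17.8% of all. Members of one hormone pathway are not independent of each other, and they were chosen with results of these arrays known, so these counts are a description without a test.

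**Figure D2:**
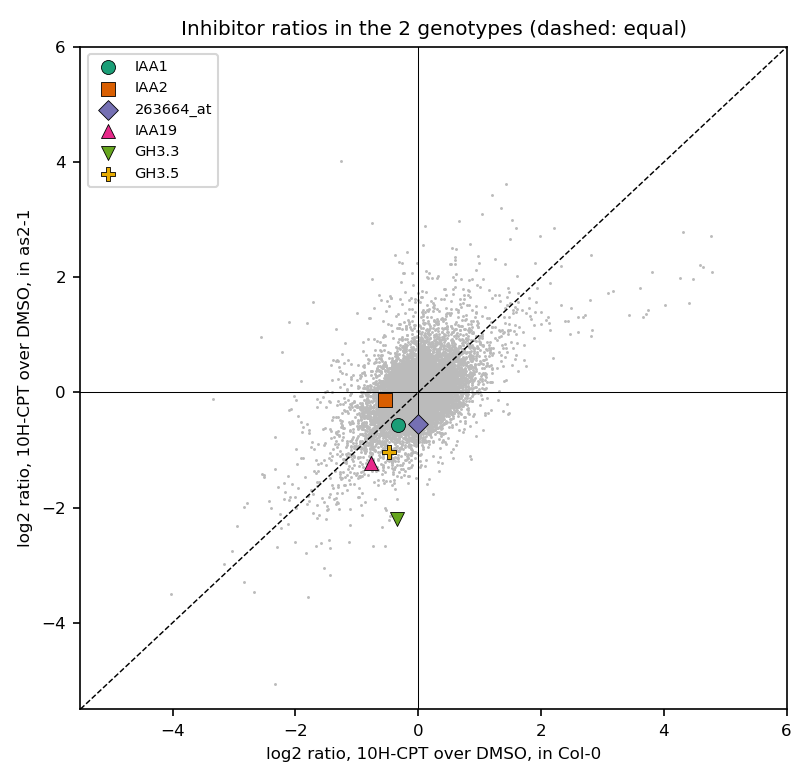
Log2 ratio of 10H-CPT over DMSO in Col-0 (horizontal axis) and in as2-1 (vertical axis) for the 13748 probe sets measured in both pairs (grey) and the 6 measured members (coloured). All 6 lie below 0 on the vertical axis, 5 lie below the dashed line of equal ratios, and GH3.3 lies farthest below it.

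Mutation and inhibitor together were set against neither. Here 3 of 6 members (IAA19, GH3.3 and GH3.5) were at least 2-fold lower in treated as2-1 than in untreated Col-0, and 0 were at least 2-fold higher. Of the 14269 probe sets measured, 3.53% were at least 2-fold lower and 4.27% at least 2-fold higher. GH3.3 was 5.73-fold lower, IAA19 2.32-fold lower and GH3.5 2.05-fold lower. IAA1 was 1.68-fold lower and IAA2 1.39-fold lower, and 263664_at was 1.55-fold higher. This comparison uses arrays of the preceding ones and adds no separate evidence.

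**Figure D3:**
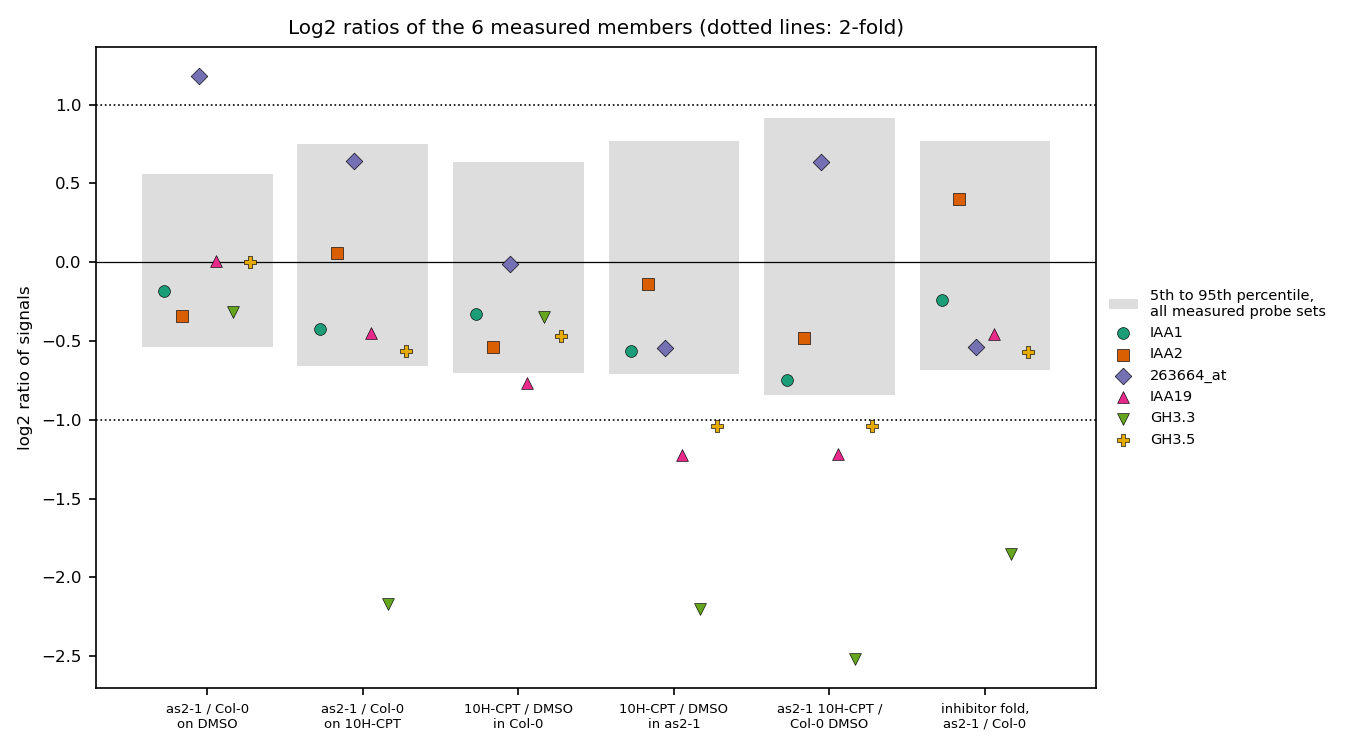
Log2 ratios of the 6 measured members (coloured symbols) in the 5 comparisons of arrays and in the ratio of inhibitor folds, with 2-fold marked by dotted lines. Grey bars span the 5th to 95th percentile of all measured probe sets; GH3.3 lies below the bar in 4 of the 6 columns.

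Whether the inhibitor's ratio depended on the genotype was described by the difference of the log2 ratios, as2-1 minus Col-0. No test of it is possible on single arrays. It was -1.85 for GH3.3, so that the inhibitor fold in as2-1 was 3.61-fold below that in Col-0, the 19th lowest of 14587 probe sets. The values were -0.57 for GH3.5, -0.54 for 263664_at, -0.46 for IAA19 and -0.24 for IAA1, and 0.40 for IAA2. Only GH3.3 was past 2-fold, among probe sets of which 1.29% lay at least 2-fold lower and 2.59% at least 2-fold higher.

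The effects averaged over the other factor were tested with limma by an additive model of genotype and treatment over all 4 arrays and 13767 probe sets, 6 members among them. Its error is the departure from additivity, with 1 residual degree of freedom, and not a spread between replicates. For the treatment, 1 of 6 members passed an adjusted p of 0.05. IAA19 fell by 0.99 ± 0.19 (SE) on the log2 scale, with a limma adjusted p of 0.0476. Over all tested probe sets 1.66% fell and 1.31% rose. The call of IAA19 lay at the threshold and was lost in each alternative that tested it, with limma adjusted p-values between 0.0518 and 0.604, including one of 0.0566 with the values left exactly as deposited.

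The other members did not pass for the treatment. The log2 treatment effect of GH3.5 was -0.76 ± 0.20 (SE), with a limma adjusted p of 0.118. That of GH3.3 was larger, -1.28 ± 0.39, but with a limma adjusted p of 0.161, since its departure from additivity enters the error. For IAA1, IAA2 and 263664_at the effects were -0.45, -0.34 and -0.28, with limma adjusted p-values of 0.270, 0.421 and 0.539.

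For the genotype, 0 of 6 members passed in limma, and 2 had an unadjusted limma p below 0.05, 263664_at and GH3.3. An unadjusted limma p below 0.05 was also that of 1765 of 13767 probe sets (12.8%). By the adjusted p, over all tested probe sets 0.138% rose and 0.283% fell in as2-1. The genotype effect of 263664_at was 0.91 ± 0.20 (SE) on the log2 scale, with an unadjusted limma p of 0.00274 and an adjusted p of 0.132. That of GH3.3 was -1.24 ± 0.39, with an unadjusted limma p of 0.0158 and an adjusted p of 0.249. With trend and robust settings the unadjusted limma p of GH3.3 was 0.130. With dim probe sets kept in, the unadjusted limma p was 0.317 for GH3.3 and 0.109 for 263664_at. In the other settings that tested them, both stayed below 0.05 before adjustment. A p that misses the threshold does not show that the genotypes were alike.

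GH3.3 varied most among the measured members, 5.73-fold between its highest and lowest signals, so its profile over the 4 arrays was set against the 12716 other probe sets above the floor on all of them. Likeness was the root mean square difference of log2 signals, each centred on its own mean. With 4 arrays, such likeness describes a shape only. The nearest was 265400_at (AT2G10940), at a difference of 0.084, with signals of 1666.4 and 1202.6 in Col-0 without and with 10H-CPT and of 1162.0 and 251.6 in the mutant. Next came 251584_at at 0.123, 253255_at at 0.228, 260883_at (AT1G29270) at 0.235 and 259839_at at 0.288. All 5 had their lowest signal in as2-1 on 10H-CPT and their highest in Col-0 on DMSO, as GH3.3 did. They were picked for likeness to GH3.3 on these same arrays, so the shared order is no separate observation.

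**Figure D4:**
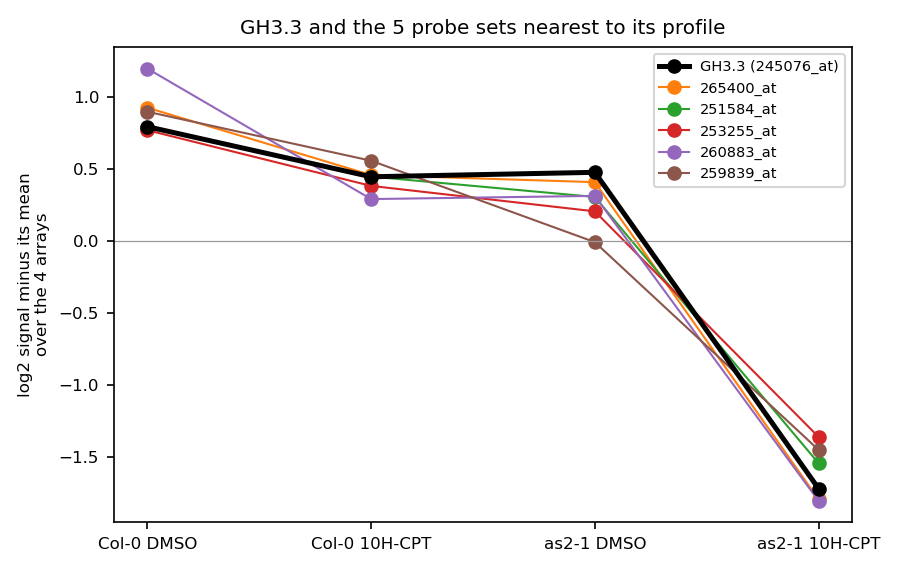
Log2 signal minus its mean over the 4 arrays (vertical axis) for GH3.3 (thick black line) and the 5 probe sets nearest to it (coloured lines), 1 point per array. Every line is highest in Col-0 on DMSO and lowest in as2-1 on 10H-CPT; lines join the arrays only as a guide.

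Other genes of the auxin pathway were followed through lists of 88 genes. Only 16 of them were matched to a probe set and 7 were measured. Between 5 and 7 had a ratio in a given comparison of arrays, and 0 of those were past 2-fold. Over all measured probe sets, between 1.04% and 4.27% were at least 2-fold higher in a comparison and between 1.09% and 3.53% lower. In limma 5 of the 7 were tested, all but YUC2 and YUC4, and 0 passed for either effect. Of all tested probe sets, 0.138% rose and 0.283% fell for the genotype, and 1.31% and 1.66% for the treatment. With shares this small, 0 of so few does not show that these genes were unchanged. IAA18, another Aux/IAA repressor, had signals of 227.0 and 170.8 in Col-0 without and with 10H-CPT and of 247.2 and 321.4 in the mutant. In as2-1 on 10H-CPT it was 1.88-fold higher than in Col-0 on 10H-CPT, where GH3.3 was 4.50-fold lower. HAT2, an auxin-induced homeodomain factor, had signals of 169.2 and 292.6 in Col-0 and of 172.4 and 203.1 in the mutant. It was 1.73-fold higher on the inhibitor in Col-0 and 1.18-fold higher in as2-1. The measured members other than 263664_at were lower on it in both genotypes under each scaling tried.

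Within the GH3 family, 3 more genes were matched. GH3.17, an enzyme that couples auxin to glutamate, stayed within 365.7 to 409.2 on the 4 arrays, while GH3.3 ranged from 93.7 to 537.3. GH3.9 lay near the floor, between 43.2 and 56.6. GH3.1 lay below the floor on every array, between 0.8 and 13.3. Among other Aux/IAA genes, the probe sets of IAA20, IAA30, IAA31, IAA33 and IAA34 all lay below the floor, as those of IAA6 and IAA29 did. The auxin synthesis genes YUC2 and YUC4, which encode flavin monooxygenases, each had 1 array above the floor, and YUC6 had none.

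Of 12 genes fixed as regulators of leaf polarity and of the meristem, 3 were matched, all of them measured. YAB5, of the YABBY family that acts on the abaxial side, had signals of 63.8 and 75.7 in Col-0 without and with 10H-CPT and of 114.4 and 137.6 in the mutant. Its mutant excess was 1.80-fold on DMSO and 1.82-fold on 10H-CPT, beside 2.27-fold and 1.56-fold for 263664_at. With mutation and inhibitor together, YAB5 was 2.16-fold higher than in untreated Col-0, past the 2-fold threshold that 4.27% of probe sets passed upwards. YAB3 ran from 180.1 to 254.1 and PHV, an adaxial homeodomain factor, from 409 to 640.3. Unlike YAB5, both were lower in as2-1 than in Col-0 in both treatments. The log2 ratios were -0.49 on DMSO and -0.08 on 10H-CPT for YAB3, and -0.14 and -0.65 for PHV. None of the 3 passed in limma for either effect, as was so for most of all probe sets tested.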

How the data were processed

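Biotin-labelled cRNA of 4 samples was measured on Affymetrix arrays, per the labels' protocols, 1 array per sample. The authors deposited 1 linear signal intensity for each probe set, made with MAS5 per the submitters' processing notes, whose version and settings are not stated in the labels. MAS5 makes ratios of dim signals noisy. Precision is limited by the number of arrays.

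Arrays were rescaled to one trimmed mean (2% left out at each end; factors 0.9994 to 1.0006), signals below the floor (40th percentile, 46.6) were set to it, and log2 was taken. Signals are printed as deposited, and ratios come from the rescaled values. Single-array ratios were counted at 2-fold. Averaged effects were fitted in R 4.3.3 with limma 3.58.1 (additive model, eBayes, Benjamini-Hochberg at 0.05) on the 13767 probe sets whose mean signal passed the floor, with 1 residual and 5.93 prior degrees of freedom. The fitting code was run on simulated data with additive effects and independent noise. That is no check of the additive model on these 4 arrays. Other steps used Python 3.11.15, numpy 2.4.6, pandas 2.3.3 and matplotlib 3.10.9.

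The members, lists and tests were chosen with earlier results of these data known. All 8 members are named; of the other auxin genes, those past 2-fold in both pairs of a factor were to be named, or else the 2 with the largest ratio among those above the floor on all arrays, which applied. Values of further matched genes are printed beside them and were added after they were seen. The platform annotation pairs 13513 probe sets with 1 gene and 503 with several; the other 8730 are not listed, and those with several genes were left out of the lists. Tried as alternatives were no rescaling, quantile normalization, the 20th or 60th percentile as floor, 1.5-fold or 3-fold as threshold, a trended robust eBayes, and a run that kept dim probe sets.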

Additional observations from a re-analysis of the deposited data

Results flagged for a closer look

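For some genes the direction of one factor's effect turned between the levels of the other factor. These turns rest on 1 array per group, and the differences were not tested. Of 13629 probe sets measured in both treatments, 29.7% were lower in as2-1 in both and 29.7% higher in both. The rest did not keep 1 direction, so such turns are common. Of the 6 measured members, 2 were lower in both and 1 was higher in both. For IAA2 the log2 ratio of as2-1 over Col-0 was -0.34 on DMSO and 0.06 on 10H-CPT, a difference of 0.40. For IAA19 it was 0.01 and -0.45, a difference of -0.46. For GH3.5 it was 0.00 and -0.57, a difference of -0.57. For HAT2 it was 0.03 and -0.53, a difference of -0.56. In IAA19, GH3.5 and HAT2 the ratio on DMSO was so close to 0 that the turn of sign carries little weight. The same holds for IAA2, whose ratio on 10H-CPT was 0.06, or 0.03 after quantile normalization. For IAA18 the turn was in the inhibitor ratio, with a log2 value of -0.41 in Col-0 and 0.38 in as2-1, a difference of 0.79. The shares above are for the genotype ratio and do not cover this turn. Of 13748 probe sets measured in both genotypes, 33.6% were lower on the inhibitor in both. IAA18 was named for its large ratio among the few matched genes, so a large value was selected for.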

How the results depend on the processing

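Quantile normalization turned the sign of ratios close to 0, from -0.01 to 0.01 for the inhibitor in Col-0 (263664_at) and from 0.0068 to -0.0048 for the genotype on DMSO (IAA19). Higher floors can only shrink a ratio of 2 arrays and the rescaling is slight, so their keeping the direction of larger ratios is no check. The difference of inhibitor ratios can grow, as for 263664_at, from -0.538 to -0.548 at the 60th percentile. Of the members limma called 1 for the treatment, IAA19. It called 0 with values as deposited, quantile normalization, both other floors, a trended robust eBayes, and dim probe sets kept in. At the 60th percentile only 3 members were tested, without IAA19, so that 0 is no loss of its call. Over all probe sets the floor at the 20th percentile and the run without a filter also gave 0 limma calls, with 1916 and 1754 unadjusted p-values below 0.05 for the genotype and 2586 and 2175 for the treatment. Calls for the genotype numbered 58, but 17 after quantile normalization, 102 at the 60th percentile and 115 with trend and robust settings. With the floor at the 20th percentile all 8 members were measured. Members past 2-fold then numbered 2 for genotype on 10H-CPT (1 in the main setting), with IAA29 added, 1 for the inhibitor in Col-0 (0), IAA6, and 4 for the treated mutant against untreated Col-0 (3), IAA6 again. All of these were lower. Of all measured, in that order, 699 were higher and 491 lower of 18995, 550 and 668 of 19036, and 1077 and 923 of 19079. With the floor at the 60th percentile 0 members were past 2-fold for genotype on DMSO (1), where the 2.27-fold excess of 263664_at became a bound of 0.56 on the log2 scale. In that pair 77 of 9614 were at least 2-fold higher and 82 lower. The inhibitor in as2-1 and the treated mutant then gave 2 members each (3 each), all lower, without IAA19. Of all, 234 were higher and 151 lower of 9828, and 344 and 265 of 9938. The IAA19 inhibitor ratios became bounds of -0.07 in Col-0 and -0.08 in as2-1. At 1.5-fold 2 members passed for genotype on 10H-CPT, 1 higher and 1 lower. For the inhibitor in Col-0 it was 1, lower, and for the treated mutant 5 (3), 4 of them lower. Of all, 1168 were higher and 947 lower of 14147, 857 and 1034 of 14091, and 1438 and 1396 of 14269. At 3-fold 0 members passed for genotype on DMSO. For the inhibitor in as2-1 (3) and the treated mutant (3) it was 1, GH3.3, lower. Of all, 36 were higher and 35 lower of 14069, 133 and 94 of 14244, and 248 and 194 of 14269. With the floor at the 20th percentile 58.8% (48.7%) of all probe sets past 2-fold for genotype on DMSO were higher. For the difference of inhibitor ratios the positive share was 52.4% (66.8%). No paired analysis was possible because each group has 1 array and the labels give no replicate numbers.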
